A study of Mus musculus with 6 samples.

Results

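The genes described here are 45 genes that cells use in G2 and mitosis: the cyclins and kinases that start division, the subunits of the kinetochore, the proteins of the spindle checkpoint, the spindle motors and the machinery of cytokinesis. They were taken as a list of names among the 52636 gene identifiers of the deposited count table, and each name matched 1 protein-coding gene. All 45 passed the filter on low counts that left 13901 genes to be tested. By the roles given to them here 10 are kinetochore genes and 4 are spindle genes, so they are called mitotic genes below.

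RNA was sequenced from endothelial cells that had been isolated from mouse brain and grown in culture. The 6 libraries were 3 of cells with a double knockout of Erg and Fli1 (called knockout here) and 3 of wild-type control cells. Erg and Fli1 encode transcription factors of the ETS family. Cells of both groups had been exposed to 4-OHT (4-hydroxytamoxifen), the agent given to induce the deletion, and had then been sorted as live cells without CD45 and with CD31 and VE-cadherin on their surface. The labels used here do not name the Cre line, the deleted exons or the age of the mice, and do not say which cultures came from which animals. P-values therefore measure the spread between these libraries, which may be technical in part.

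Entry into mitosis is driven by cyclin-dependent kinase 1 bound to A- and B-type cyclins, after which chromosomes are condensed, attached to spindle microtubules through their kinetochores and separated once the spindle checkpoint is satisfied. Most genes of this program are transcribed together late in the cell cycle. In quiescent cells the DREAM complex represses them, and later its MuvB core joins B-Myb and FOXM1 to activate them. MuvB binds the CHR element in their promoters, and NF-Y binds CCAAT boxes nearby. Endothelial cells of the adult brain rarely divide, whereas cultured endothelial cells can.

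The promoters of these genes share sequence that played no part in choosing them. RefSeq promoters on GRCm38.p6, each running from 250 bases before the transcription start to 50 after it, were matched for 37 of the 45 genes. Names with no entry were Aurkb, Tpx2, Incenp, Kif20a, Foxm1, Cdc25c, Spc24 and Ccna2. The CHR element TTTGAA, searched on both strands, was found in 26 of the 37 genes (70.3%), against 14.2% of the 10309 tested genes with a RefSeq promoter. CCAAT was found in 28 of the 37 genes (75.7%, against 42.9%), and both motifs together in 21 (56.8%, against 5.82%). The ETS motif CCGGAAGT was found in 4 of the 37 genes (10.8%, against 9.08%), namely Aurka, Cenpf, Ndc80 and Sgo1. Counted over promoters of the same length in place of genes, the CHR element was in 69% of the 42 promoters of mitotic genes, in 11.9% of the 13229 of tested genes and in 17.9% of all 32851. Between different motifs, 1 pair of matches in the mitotic genes overlapped, and overlaps between matches of the same motif were not counted.

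Promoters of 6 genes are shown as examples, as the 120 bases before the RefSeq start, 5′ to 3′ on the strand of the gene. Bases after the start are left out, where the nearest CHR element lay in 17 of the 26 genes with one. Capitals mark TTTGAA and CCAAT, or TTCAAA and ATTGG where the motif is on the other strand. Cdc20 (chr4:118437344-118437463, minus strand), Cdk1 (chr10:69352913-69353032, minus strand), Kif11 (chr19:37376262-37376381, plus strand), Top2a (chr11:99024190-99024309, minus strand) and Mki67 (chr7:135716380-135716499, minus strand) have a CHR element before the start. Bub1 (chr2:127831860-127831979, minus strand) rose furthest among the genes with a promoter entry and has no CHR match in its window.
Cdc20: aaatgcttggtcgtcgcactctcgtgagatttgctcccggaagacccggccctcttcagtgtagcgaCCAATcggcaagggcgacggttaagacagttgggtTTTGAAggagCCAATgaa
Cdk1: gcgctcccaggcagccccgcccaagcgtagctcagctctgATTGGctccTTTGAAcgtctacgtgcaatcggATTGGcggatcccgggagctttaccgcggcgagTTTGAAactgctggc
Kif11: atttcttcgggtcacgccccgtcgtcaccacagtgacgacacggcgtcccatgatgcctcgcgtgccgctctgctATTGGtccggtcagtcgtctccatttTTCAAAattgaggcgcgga
Top2a: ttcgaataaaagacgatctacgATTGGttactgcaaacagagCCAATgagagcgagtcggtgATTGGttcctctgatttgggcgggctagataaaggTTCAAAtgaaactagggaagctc
Mki67: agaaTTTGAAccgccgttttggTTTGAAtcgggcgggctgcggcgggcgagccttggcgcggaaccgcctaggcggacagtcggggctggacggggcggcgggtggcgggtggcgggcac
Bub1: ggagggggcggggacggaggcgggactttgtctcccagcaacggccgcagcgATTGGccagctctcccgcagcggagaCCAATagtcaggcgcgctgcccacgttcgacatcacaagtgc

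Cdc20, Kif11 and Top2a each have 1 CHR element in the stretch shown, and Cdk1 and Mki67 have 2. The element nearest to the start began 18 bases before it in Cdc20, 15 in Cdk1, 19 in Kif11 and 23 in Top2a, but 98 in Mki67, whose stretch holds no CCAAT box. Over the 26 genes with a CHR element, the nearest one lay within 50 bases of the start in 24, after the start in 17 and before it in 9. The window ends 50 bases after the start, so any element found after the start lies within 50 bases by construction. Of 69 CCAAT matches over the 42 promoters, 64 (92.8%) began before the start, as do 84.5% of the positions a match could take in the window. Some genes have several starts with overlapping windows, as Ect2, Bub3 and Prc1 do, and a site shared by such windows is counted in each. For 7 genes (Bub3, Cdca8, Cenpa, Cenpk, Kif2c, Kif4 and Pttg1) a RefSeq start lies more than 100 bases inside the GENCODE gene, so that their windows may not cover the main promoter. A match describes these letters only and is not a measurement of binding.

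**Figure D1:**
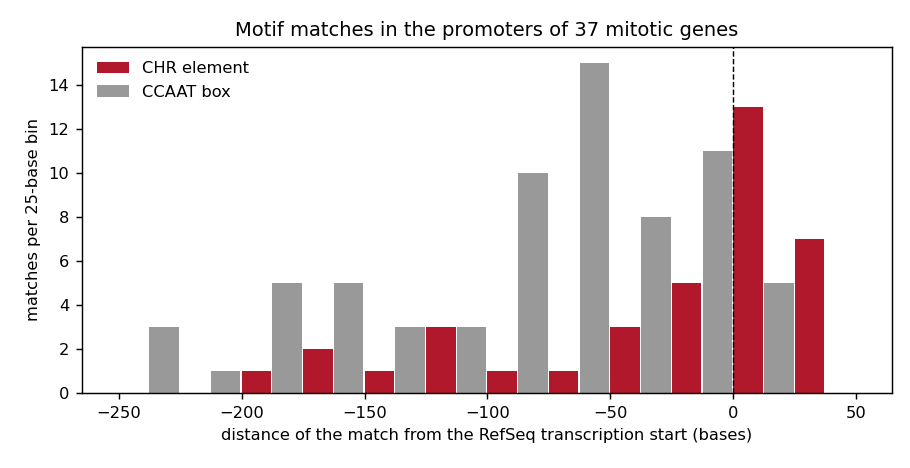
Matches of the CHR element (red) and the CCAAT box (grey) in the RefSeq promoters of 37 mitotic genes, as the number of matches per 25-base bin (y axis) by distance from the transcription start in bases (x axis, dashed line at the start). CHR matches are most frequent in the 25 bases after the start, with 13, and CCAAT matches at 50 to 75 bases before it, with 15. A site shared by overlapping windows of a gene with several starts is counted in each window.

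Erg transcripts were lower in the knockout. Erg had 70.2, 88.3 and 109 CPM (a count relative to the TMM-scaled total of its library) in knockouts 1 to 3, against 656, 223 and 609.6 CPM in controls 1 to 3. The log2 fold change of Erg was -2.48 (SE 0.44, adjusted p = 0.0137 by edgeR), and without control 3 or any 1 of the knockouts the adjusted p was 0.0508 to 0.0691. Fli1 had 57.0, 68.5 and 66.7 CPM in knockouts and 82.9, 64.1 and 92.1 CPM in controls, a change that did not pass (log2 fold change -0.32, edgeR adjusted p = 0.181) unless control 2 was left out (-0.48, adjusted p = 0.00346). Counts cover whole genes, so transcripts that lack a deleted exon are counted as well.

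Library totals were 17274639 to 19410458 counts, and control 2 stood apart from the other controls. Compared gene by gene with controls 1 and 3, its counts gave chi-square values per degree of freedom of 190 and 173, where controls 1 and 3 gave 5.80 with each other and pairs of knockouts gave 9.17 to 10.6. With the knockouts, control 2 gave 167 to 177, and controls 1 and 3 gave 179 to 219. By Xist and Ddx3y, knockout 1 and controls 1 and 3 came from male cells, and knockouts 2 and 3 and control 2 from female cells. Endothelial identity was checked with 10 markers, whose summed level was 3786 to 4631 CPM in knockouts and 6558 to 15681 CPM in controls, lowest in control 2. Of these, 9 fell and 1 (Eng) did not pass. Cdh5, the most abundant marker by mean and the gene of VE-cadherin, had 1299, 1104 and 1406 CPM in knockouts and 4693, 2306 and 4957 CPM in controls. Its call was lost without any 1 library other than control 2 (edgeR adjusted p 0.0571 to 0.0823). The 11 fibroblast markers summed to 1669 to 2899 CPM in knockouts and to 462 to 13759 CPM in controls, with the highest value in control 2, where Col1a1 had 5489 CPM, and of 10 tested 1 rose (Pdgfra). Dcn alone made up 70.9% to 80.5% of these sums in knockouts and 0.573% to 2.30% in controls, and without it the sums were 326 to 790 CPM in knockouts and 458 to 13442 CPM in controls. The 9 mural cell markers, led by Acta2, summed to 711 to 1422 CPM in knockouts and to 442 to 4140 CPM in controls, again highest in control 2, and 1 fell (Abcc9). Controls 1 and 3 had mural sums of 442 and 561 CPM. Without control 2, 2 mural markers were called higher and 1 lower, where 25.5% of all tested genes were called higher and 24.8% lower. Leukocyte and microglia markers, led by Cd68, summed to at most 2.95 CPM in knockouts and 4.17 CPM in controls, with C1qa and C1qb at 0 in all 6 libraries. Astrocyte and neuron markers, led by Aldh1l1, summed to at most 8.84 CPM in knockouts and 11.2 CPM in controls in a library. Of the 8 genes in each of the last 2 lists, only 2 and 1 had enough counts to be tested and 0 were called, while Aldh1l1 was called lower without control 2 (log2 fold change -0.50, edgeR adjusted p = 0.0265). The part of these differences in the results on mitotic genes was not tested, and results without control 2 are given beside them.

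Mitotic transcripts were higher in the knockout in almost the whole set. Of 45 genes, 43 rose and 0 fell (edgeR, adjusted p under 0.05), where 24.7% of all tested genes were called, 13.1% higher and 11.7% lower. The genes that did not pass were Bub3 and Pttg1. At an unadjusted p under 0.05 edgeR found 0 lower, and DESeq2 and limma voom called 0 lower. The median log2 fold change was 1.45 (2.73-fold), with quartiles of 1.36 and 1.61, against a median of 0.00304 and quartiles of -0.31 and 0.29 over all tested genes. A log2 fold change of at least 1 was seen in 42 of the 45 genes and in 1112 of the 13901 tested genes. In bulk RNA, a larger share of cells in G2 and mitosis and more mitotic RNA per cell cannot be told apart.

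The change was also even in size. Among the 43 genes that rose, folds ran between 1.89 for Incenp and 4.13 for Spc24, and 41 of the 43 lay between 2-fold and 4-fold. Adjusted p ran between 7.107e-04 for Ect2 and 0.0246 for Cenpk. For each of the 43 genes the lowest knockout library was at least 1.5 times the highest control library, and for 28 it was at least 2 times as high. The shares of all tested genes with gaps this wide were not counted. Groups that do not overlap, with the knockout higher, were found in 25.0% of all tested genes, and in 37.9% when control 2 was left aside, where the same 43 mitotic genes did not overlap. The gap was widest for Bub1, at 3.29 times, and narrowest for Incenp, at 1.52 times.

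Summed over the 45 genes, the level was 1585, 1915 and 1767 CPM in knockouts 1 to 3, against 666, 764 and 695 CPM in controls 1 to 3. The means were 1756 ± 166 CPM in knockouts and 708 ± 50.5 CPM in controls (SD, n = 3 each), a ratio of 2.48. Libraries differed within each group as well. Knockout 1 was the lowest knockout for 41 genes and knockout 2 the highest for 37, with a median ratio of 1.21 between knockout 2 and knockout 1. Control 2 was the highest control for 37 genes, at a median of 1.22 times the mean of controls 1 and 3. Without control 2, 43 genes rose and 1 fell (Bub3), in a comparison that called 50.3% of 14178 tested genes (25.5% higher and 24.8% lower), and the median log2 fold change was 1.56. Among male libraries (1 knockout, 2 controls) 44 of the 45 genes were higher in the knockout, with a median log2 ratio of 1.36. Among female libraries (2 knockouts, with control 2 as the 1 control) 45 of 45 were higher, with a median of 1.33.

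**Figure D2:**
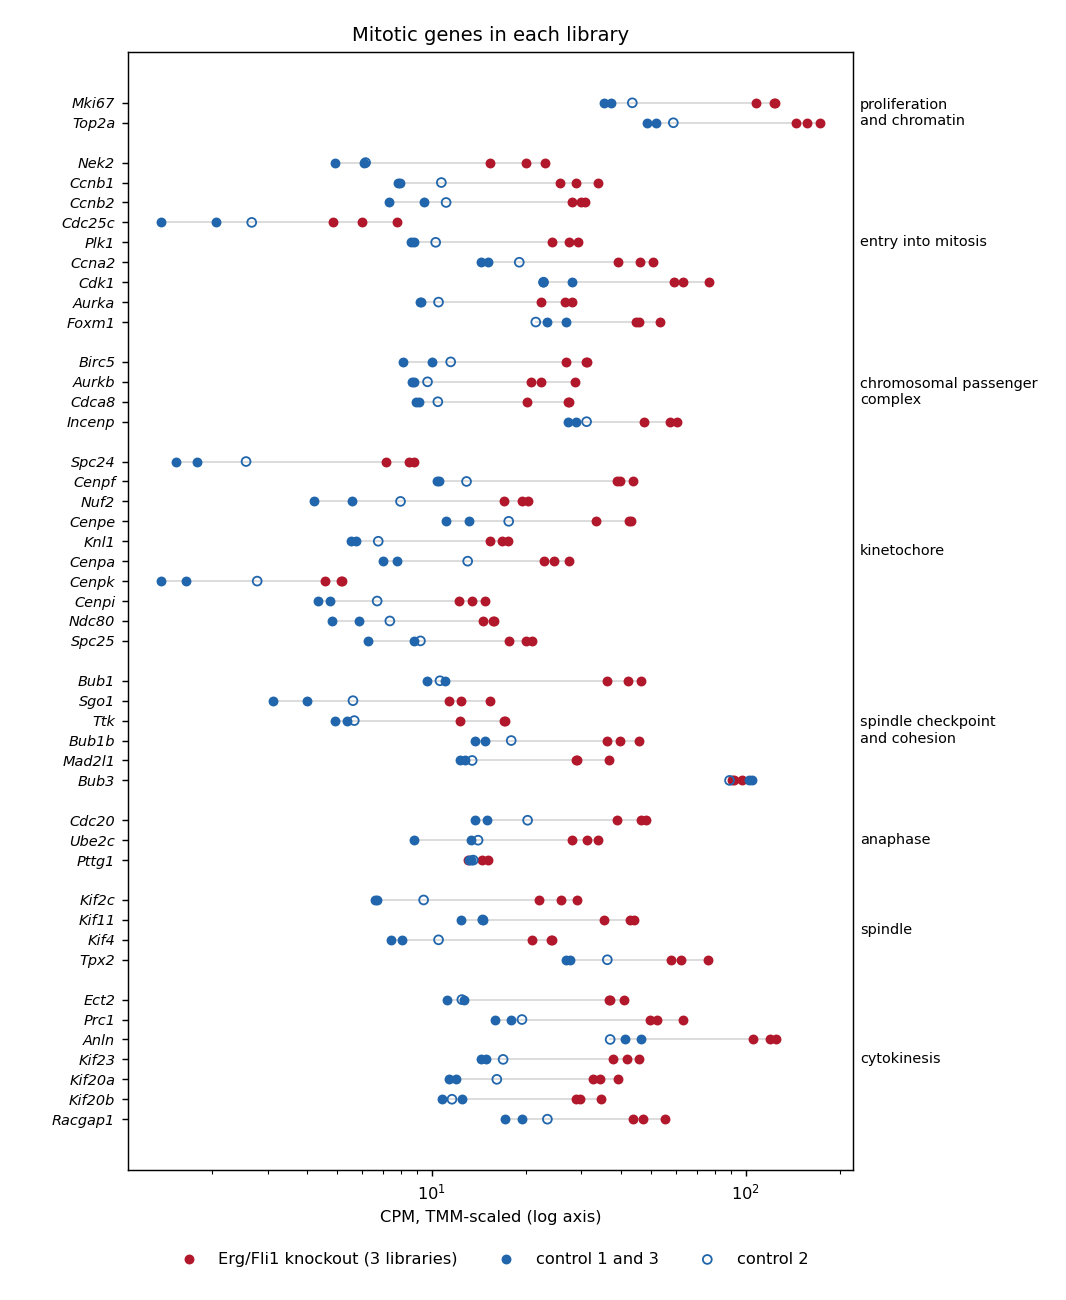
Level of each of the 45 mitotic genes in each library, in CPM on a log axis, grouped by role. Red points are the 3 knockout libraries, filled blue points controls 1 and 3 and open blue points control 2. Red and blue points do not overlap in 43 rows, and they overlap for Bub3 and Pttg1.

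**Figure D3:**
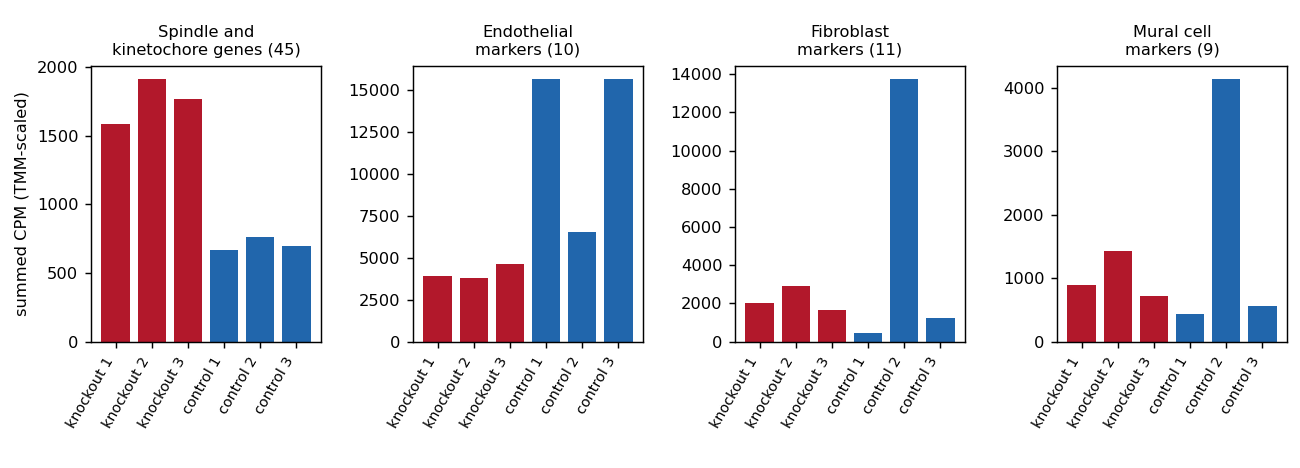
Summed CPM of the 45 mitotic genes and of 10 endothelial, 11 fibroblast and 9 mural cell markers in each library, with knockouts in red and controls in blue and a separate linear axis in each panel. The mitotic sum of control 2 (764 CPM) is close to those of controls 1 and 3, whereas its fibroblast sum (13759 CPM) is the highest of the 6 libraries.

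Markers of proliferating chromatin rose about 3-fold. Mki67 encodes Ki-67, which coats mitotic chromosomes and is the standard marker of proliferation. It had 108, 123 and 124 CPM in knockouts, against 35.4, 43.6 and 37.2 CPM in controls (log2 fold change 1.61, SE 0.10, edgeR adjusted p = 0.00117). Top2a encodes topoisomerase II alpha, which untangles sister chromatids. Its 145, 173 and 157 CPM in knockouts compared with 48.5, 58.9 and 51.8 CPM in controls (1.58, SE 0.10, adjusted p = 0.00120). For both genes, whose promoters with CHR elements are shown above, the groups were far apart, with the lowest knockout at 2.49 times the highest control for Mki67 and 2.47 times for Top2a.

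All 9 genes of entry into mitosis rose, with a median log2 fold change of 1.55. Cdk1, the kinase that drives the transition, had 59.0, 76.5 and 63.0 CPM in knockouts and 22.6, 22.7 and 28.0 CPM in controls (log2 fold change 1.44, SE 0.14, edgeR adjusted p = 0.00284). Ccnb1, its B-type cyclin partner, had 25.6, 33.9 and 28.9 CPM in knockouts and 7.90, 10.7 and 7.78 CPM in controls (1.74, SE 0.18, adjusted p = 0.00316). Nek2 encodes a kinase of centrosome separation and rose furthest of the 9, with 15.3, 22.9 and 19.9 CPM in knockouts and 4.90, 6.15 and 6.08 CPM in controls (1.76, SE 0.19, adjusted p = 0.00354). In all of them knockout 1 was the lowest knockout and still lay above each control. Plk1, a kinase of centrosome maturation and mitotic entry, had 24.2, 29.3 and 27.3 CPM in knockouts and 8.75, 10.3 and 8.60 CPM in controls (1.55, SE 0.12, adjusted p = 0.00163). Foxm1, the transcription factor that acts on many of these promoters, rose least of the 9, with 44.6, 53.5 and 45.8 CPM in knockouts and 26.7, 21.5 and 23.3 CPM in controls (1.01, SE 0.12, adjusted p = 0.00442). The A-type cyclin gene Ccna2, the B-type cyclin gene Ccnb2, the phosphatase gene Cdc25c and the kinase gene Aurka rose by 1.49, 1.67, 1.61 and 1.41 on the log2 scale. Cdc25c was near the lower end of expression, at 6.20 ± 1.47 CPM in knockouts and 2.03 ± 0.649 CPM in controls (SD, n = 3 each), and did not pass when control 1, knockout 2 or knockout 3 was left out (adjusted p 0.0599 to 0.0694 by edgeR).

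The 4 genes of the chromosomal passenger complex, which corrects faulty attachments and prepares cytokinesis, all rose. Birc5, the survivin subunit that targets the complex to chromosomes, had 26.8, 30.9 and 31.2 CPM in knockouts and 10.01, 11.5 and 8.11 CPM in controls (log2 fold change 1.59, SE 0.15, edgeR adjusted p = 0.00266). Aurkb, the kinase subunit, had 20.7, 28.7 and 22.2 CPM in knockouts and 8.64, 9.69 and 8.77 CPM in controls (1.40, SE 0.15, adjusted p = 0.00351). Incenp, the scaffold, was the most abundant of the 4 and the gene with the smallest rise of the 43, with 47.4, 60.5 and 57.5 CPM in knockouts and 28.9, 31.1 and 27.2 CPM in controls (0.92, SE 0.11, adjusted p = 0.00519). Cdca8, the borealin subunit, rose by 1.39 on the log2 scale. Within this complex the scaffold transcript therefore changed 1.89-fold and the survivin transcript 3.00-fold. The difference between subunits was not tested.

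All 10 kinetochore genes rose, with log2 fold changes of 1.27 to 2.05 and a median of 1.44. Spc24, a subunit of the NDC80 complex that holds the microtubule, had 7.14, 8.76 and 8.47 CPM in knockouts and 1.79, 2.56 and 1.53 CPM in controls (2.05, SE 0.24, edgeR adjusted p = 0.00425). It is the only mitotic gene above 4-fold, on low counts. Cenpf, a large protein of the outer kinetochore, had 38.8, 39.7 and 43.8 CPM in knockouts and 10.4, 12.9 and 10.5 CPM in controls (1.86, SE 0.12, adjusted p = 0.00106). Cenpe, a kinesin that moves chromosomes to the metaphase plate, had 33.4, 42.6 and 43.3 CPM in knockouts and 11.1, 17.6 and 13.1 CPM in controls (1.51, SE 0.20, adjusted p = 0.00627). Control 2 was the highest control for all of these. The other NDC80 subunits Nuf2, Ndc80 and Spc25 rose by 1.67, 1.35 and 1.27, and Knl1, the scaffold that recruits checkpoint proteins, by 1.46. Cenpa, the histone H3 variant of centromeres, rose by 1.43, and Cenpi and Cenpk, of the inner kinetochore, by 1.36 each. Cenpk was the mitotic gene with the weakest support, at 4.57, 5.19 and 5.12 CPM in knockouts and 1.37, 2.78 and 1.64 CPM in controls. It lost its call without any 1 library other than control 2 (edgeR adjusted p 0.0623 to 0.0916), and Cenpa lost its call without knockout 2 or 3 (0.0581 and 0.0572). Without control 2 the log2 fold change was 1.68 for Cenpk, 1.72 for Cenpa and 2.25 for Spc24.

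Checkpoint and cohesion genes split into 5 that rose and 1 that did not pass. Bub1, the kinase that marks centromeric chromatin during checkpoint signalling, had 36.2, 46.3 and 42.3 CPM in knockouts and 9.64, 10.6 and 11.02 CPM in controls (log2 fold change 2.00, SE 0.12, edgeR adjusted p = 9.906e-04). Sgo1, the shugoshin that protects cohesin at centromeres, had 11.4, 15.3 and 12.4 CPM in knockouts and 4.00, 5.61 and 3.12 CPM in controls (1.62, SE 0.25, adjusted p = 0.00931). The checkpoint kinase gene Ttk rose by 1.54, Bub1b, which encodes BUBR1 of the mitotic checkpoint complex, by 1.39, and Mad2l1, which encodes the CDC20 inhibitor MAD2, by 1.30. Bub3 encodes the partner of BUB1 and BUBR1, and it was the most abundant gene of this role. It had 90.3, 97.6 and 92.1 CPM in knockouts and 102, 88.9 and 105 CPM in controls, so that the groups overlapped through control 2. The log2 fold change of Bub3 was -0.08 (SE 0.08, adjusted p = 0.501 by edgeR), 0.01 with scaling by library size only, and -0.18 without control 2 (adjusted p = 0.0179). Transcripts of Bub1 and Bub1b therefore rose while no rise was seen for the gene of their shared partner.

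At anaphase, Cdc20 and Ube2c rose and Pttg1 did not pass. Cdc20, the activator of the anaphase-promoting complex (APC/C), had 38.9, 48.0 and 46.3 CPM in knockouts and 14.96, 20.2 and 13.7 CPM in controls (log2 fold change 1.45, SE 0.17, edgeR adjusted p = 0.00474). Ube2c, the ubiquitin-conjugating enzyme of that complex, had 28.0, 33.8 and 31.2 CPM in knockouts and 8.80, 14.05 and 13.4 CPM in controls (1.36, SE 0.20, adjusted p = 0.00753). Pttg1 encodes securin, the inhibitor of separase. It had 14.5, 13.1 and 15.1 CPM in knockouts and 13.1, 13.6 and 13.4 CPM in controls, which overlapped (0.09, SE 0.09, adjusted p = 0.513). Over the alternatives its log2 fold change stayed within 0.05 and 0.18 and did not pass. A RefSeq promoter of Bub3 holds a match to the CHR element TTTGAA, and that of Pttg1 holds no match. The RefSeq starts of both genes lie more than 100 bases inside the GENCODE gene, so these windows may not cover the main promoter.

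The 4 spindle genes rose with a median log2 fold change of 1.48. Kif11 encodes the kinesin-5 motor that pushes the spindle poles apart, and it had 35.5, 44.1 and 42.7 CPM in knockouts and 12.4, 14.5 and 14.6 CPM in controls (1.56, SE 0.12, edgeR adjusted p = 0.00163). Kif2c, the kinesin-13 that depolymerises microtubules at kinetochores, had 22.0, 29.1 and 25.9 CPM in knockouts and 6.69, 9.42 and 6.58 CPM in controls (1.76, SE 0.19, adjusted p = 0.00353). Tpx2, an activator of Aurora A and a spindle assembly factor, had 57.7, 75.8 and 62.2 CPM in knockouts and 27.7, 36.3 and 26.8 CPM in controls (1.11, SE 0.16, adjusted p = 0.00796). Each lowest knockout lay above each highest control, by 2.44 times for Kif11, 2.34 times for Kif2c and 1.59 times for Tpx2. The chromokinesin gene Kif4 rose by 1.41.

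All 7 cytokinesis genes rose, between 1.28 and 1.66 on the log2 scale. Ect2, the exchange factor that activates RhoA at the division plane, had the lowest adjusted p of the mitotic genes, with 36.6, 41.0 and 36.9 CPM in knockouts and 11.2, 12.5 and 12.7 CPM in controls (1.66, SE 0.09, edgeR adjusted p = 7.107e-04). Prc1, which bundles the microtubules of the midzone, had 49.7, 63.0 and 52.1 CPM in knockouts and 15.9, 19.4 and 17.9 CPM in controls (1.63, SE 0.13, adjusted p = 0.00167). Anln, the scaffold anillin of the contractile ring, was the most abundant, with 105, 125 and 119.6 CPM in knockouts and 41.1, 37.03 and 46.3 CPM in controls (1.49, SE 0.11, adjusted p = 0.00158). Control 2 was the lowest control for Anln and an intermediate one for Ect2. Kif23 and Racgap1, the subunits of centralspindlin, rose by 1.44 and 1.28, and the kinesin genes Kif20a and Kif20b by 1.43 and 1.42.

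**Figure D4:**
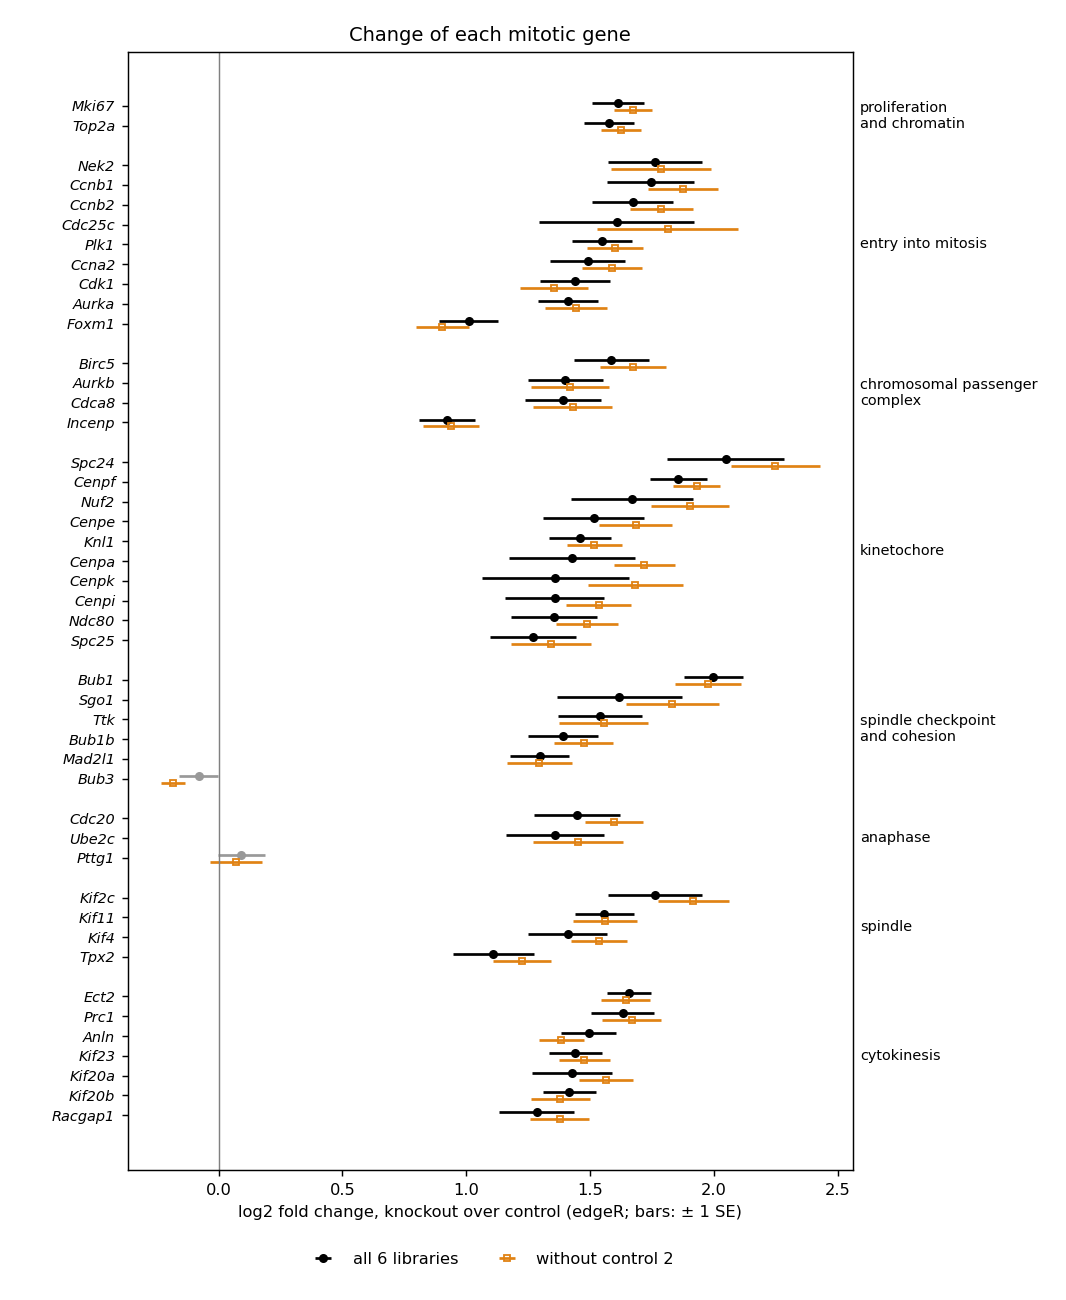
Log2 fold change of each mitotic gene, knockout over control, by edgeR with 1 SE to each side, from all 6 libraries (black, grey where not called) and without control 2 (orange squares), grouped by role. All but Bub3 and Pttg1 lie between 0.92 and 2.05 with all libraries.

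Per length of merged exons, the order of these genes differed between the groups. Levels in CPM per kilobase averaged 13.3 in knockouts and 14.1 in controls for Bub3, which held rank 6 of the 45 genes in knockouts and rank 1 in controls. Cdc20 averaged 23.8 in knockouts and 8.72 in controls and ranked first in knockouts. Pttg1 averaged 7.12 in knockouts and 6.67 in controls, rank 20 in knockouts and rank 4 in controls. Cenpk was the lowest in both groups, at 0.949 in knockouts and 0.369 in controls.

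Rises were seen with and without a match to TTTGAA, the only form of the CHR element searched. Of the 26 genes with one, 25 rose, by a log2 fold change of 1.27 to 1.86, and the median over the 26 was 1.44. Of the 11 genes with a promoter entry and no CHR match, 10 rose, by 1.30 to 2.00, with a median of 1.59. The exceptions were Bub3 among the first and Pttg1 among the second, and the windows of both may not cover the main promoter. These values describe exact matches in the windows searched, and no difference between the sets was tested.

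Reads of some mitotic genes could be shared with other genes. Exons of 13 overlap those of another annotated gene, and the overlap on the opposite strand exceeds 10% of exonic bases for Kif20a (29.3%, with Cdc23), Ube2c (22.8%, with Tnnc2), Kif4 (15.1%, with Pdzd11), Cdc25c (12.7%), Ccna2 (12.5%, with Exosc9) and Prc1 (11.1%, with Rccd1). The strand setting of the counting is not given in the sources used here. Of the 50-base stretches of their transcripts, 23.4% for Ccnb1, 10.4% for Cdc20 and 6.56% for Plk1 also occur in other genes, among them annotated pseudogenes, and at most 4.04% do for any other mitotic gene. On GRCm38 with the GENCODE M21 annotation, Bub1 (ENSMUSG00000027379) lies on chromosome 2, 127801122 to 127831865, Ect2 (ENSMUSG00000027699) on chromosome 3, 27097222 to 27153878, Mki67 (ENSMUSG00000031004) on chromosome 7, 135689784 to 135716361, and Pttg1 (ENSMUSG00000020415) on chromosome 11, 43420250 to 43426251. None of these 4 shares exonic bases with another annotated gene.

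Other genes of mitosis moved less evenly. Of 84 tested genes outside the 45, 56 rose, 3 fell and 25 did not pass, with a median log2 fold change of 0.92. Without control 2, 58 rose and 7 fell, where 25.5% of all tested genes were called higher and 24.8% lower. The genes that rose furthest were Nusap1, Ckap2 and Hmmr, which encode proteins bound to spindle microtubules. Nusap1 had 23.997, 29.6 and 28.3 CPM in knockouts and 7.69, 9.26 and 6.41 CPM in controls (1.81, SE 0.17, edgeR adjusted p = 0.00251). Ckap2 had 51.03, 56.8 and 50.8 CPM in knockouts and 14.6, 17.8 and 13.5 CPM in controls (1.79, SE 0.12, adjusted p = 0.00131). Hmmr had 32.3, 39.7 and 33.5 CPM in knockouts and 8.59, 13.5 and 9.10 CPM in controls (1.76, SE 0.20, adjusted p = 0.00426).

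By role, 15 of 17 further spindle genes rose (median log2 fold change 1.41), as did 8 of 8 condensin genes (median 1.06), 16 of 22 further kinetochore genes, 4 of 5 cytokinesis genes, 6 of 9 genes of mitotic entry and 5 of 9 checkpoint genes. Of 14 further anaphase genes, 2 rose and 2 fell. The 11 core subunits of the APC/C in the list, a subset taken out of that role, did not rise as a group. Among these 11, 0 were higher and 2 lower by edgeR, where 13.1% of all tested genes were called higher and 11.7% lower. With so few genes, these counts are not read as a departure from those shares. At an unadjusted p under 0.05, 0 were higher, and the median log2 fold change was 0.01. The summed level of these 11 was 1110.2, 1151 and 1138 CPM in knockouts and 1206, 1183 and 1219 CPM in controls. Members that fell were Anapc2 (-0.37) and Anapc5 (-0.24), and both lost their calls with scaling by library size only (edgeR adjusted p = 0.0827 and 0.168) and without any 1 library other than control 2. The third gene that fell was Cdc25a, a phosphatase that acts on CDKs from G1 onwards (-0.37), whose call was lost without control 1, control 3, knockout 2 or knockout 3 (adjusted p 0.0522 to 0.0616). The APC/C regulators Fbxo5 and Fzr1, an inhibitor and an activator, rose by 1.61 and 0.39, with Fzr1 losing its call without any 1 of the same 4 libraries (0.0579 to 0.0625). The choice of Anapc2, Anapc5, Cdc25a, Fbxo5 and Fzr1 followed from their values.

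Factors that act on mitotic promoters were measured next. Of 13 genes of MuvB, DREAM, B-Myb and NF-Y, 6 rose, 0 fell and 7 did not pass (9 and 0 at an unadjusted p under 0.05, and 0 lower with DESeq2 or limma voom), with a median log2 fold change of 0.42. The difference between this list or the S phase genes below and the 45 mitotic genes was not tested. Rbl1, which encodes the pocket protein p107, rose by 0.61 (edgeR adjusted p = 0.0180), the MuvB subunit gene Lin54 by 0.55 (0.0330) and the MuvB subunit gene Rbbp4 by 0.55 (0.00392). Mybl2, which encodes B-Myb, had 6.94, 7.42 and 7.24 CPM in knockouts and 5.01, 4.90 and 4.88 CPM in controls (0.55, SE 0.12, adjusted p = 0.0235). The levels of Mybl2 did not overlap between the groups. Without any 1 library other than control 2 Rbl1, Lin54 and Mybl2 lost their calls (adjusted p 0.0526 to 0.108) and 2 to 3 of the 13 rose, while without control 2 8 rose and 1 fell (Nfya). Of all tested genes, 5.62% to 7.01% were called higher without any 1 library other than control 2. Without control 2, 25.5% of them were called higher and 24.8% lower. Mybl2 also lost its call with a sex term (0.0552) and with no filter (0.0635).

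Among 39 S phase genes, 26 rose, 0 fell and 13 did not pass (29 and 0 at an unadjusted p under 0.05, and 0 lower with DESeq2 or limma voom), with a median log2 fold change of 0.87. The members that rose furthest at 5 CPM or more were Tk1 and Tyms, enzymes of thymidine nucleotide synthesis, by 1.36 and 1.31, and Uhrf1, which maintains DNA methylation at replication forks, by 1.24. Mcm2, a subunit of the replicative helicase, had 59.8, 71.1 and 62.8 CPM in knockouts and 41.3, 27.2 and 45.8 CPM in controls (0.76, SE 0.20, edgeR adjusted p = 0.0438). Pcna, the sliding clamp of replication, had 56.8, 69.8 and 64.9 CPM in knockouts and 59.3, 44.9 and 63.8 CPM in controls, which overlapped (0.19, SE 0.15, adjusted p = 0.407). Control 2 was the lowest control for Mcm2 and Pcna, whereas it was the highest for most mitotic genes. Without any 1 library other than control 2, 14 to 17 of the 39 rose, where 5.62% to 7.01% of all tested genes were called higher. Tyms (edgeR adjusted p 0.0712 to 0.0964) and Mcm2 (0.0673 to 0.143) were among those lost. Mcm2 also lost its call with a sex term (0.0532) and with upper-quartile scaling (0.0534). In promoters, the CHR element was found in 12.9% of 31 S phase genes and in 41.7% of 72 other mitotic genes, beside the 70.3% given above.

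**Figure D5:**
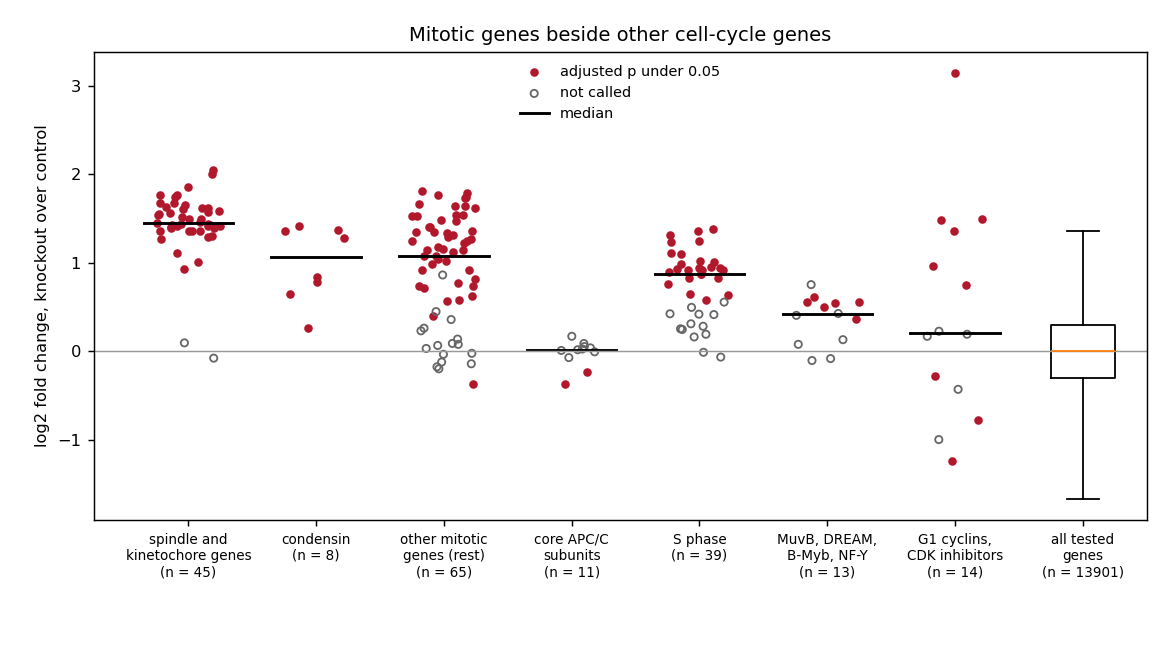
Log2 fold change, knockout over control, of each gene (points, red where the edgeR adjusted p was under 0.05) in 7 lists, with black bars at the median, beside all 13901 tested genes (box at the quartiles, line at the median, whiskers at percentiles 5 and 95). The 45 mitotic genes lie highest by median (1.45), and the 11 listed core APC/C subunits lie near 0.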

How the data were processed

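Polyadenylated RNA of 6 libraries was sequenced from kits that, per the labels' protocols, were TruSeq RNA v2 or TruSeq Stranded mRNA, with no record of which kit made which library. The authors deposited raw counts per gene as whole numbers, used here as deposited, for 52636 Ensembl identifiers. FastQC 0.11.5, STAR 2.7.6a and GRCm38 are named per the submitters' processing notes, and the sources used here give neither the counting program nor its strand setting. Symbols and exons came from GENCODE M21 (52489 identifiers matched, and the 147 others held at most 0.00608% of a library), and promoters from RefSeq. Rows without a gene name numbered 0, as did columns of other samples. Every pair of libraries differed by more than sampling noise (lowest chi-square per degree of freedom 5.80).

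Groups and replicate numbers came from the sample titles. edgeR 4.0.16 in R 4.3.3 was run on genes kept by filterByExpr, with TMM scaling, glmQLFit and glmQLFTest (two-sided, no covariate) and Benjamini-Hochberg adjustment over 13901 genes, with a threshold of 0.05 on the adjusted p. A standard error is the size of the log2 fold change over the square root of its F statistic. CPM used TMM-scaled library sizes, and within-sex ratios a pseudocount of 0.5. Alternatives were RLE, upper-quartile and library-size scaling, DESeq2 1.42.0, limma 3.58.1 voom, no filter or at least 1 CPM in 3 libraries, a replicate block, a sex term, each library left out in turn, and an adjusted p under 0.01.

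The genes, lists and markers were chosen with earlier results of these data known. Values in every library are given, per role, for the 2 genes with the largest absolute log2 fold change and the gene with the highest mean CPM, among those averaging 5 CPM or more, and for Mki67, Top2a, Foxm1, Cdk1, Ccnb1 and Plk1. Of each other list, the 3 called genes with the largest absolute change at that level are named, with Cdkn1a, Ccnd1, Mybl2, Mcm2 and Pcna, and of each marker list the most abundant gene. Bub3, Pttg1 and Cenpk were given in full after their values were seen.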

Additional observations from a re-analysis of the deposited data

How the results depend on the processing

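Of the 43 mitotic genes that rose, all 43 kept their calls under RLE, upper-quartile and library-size scaling, both other filters, the sex term, DESeq2 and limma voom. Leaving out 1 library gave 40 to 43 genes higher, 0 to 1 lower and a median log2 fold change of 1.39 to 1.56. Over 675 alternative values of the 45 genes, 10 lost the call (Cdc25c, Cenpa and Cenpk, adjusted p 0.0572 to 0.0916), 1 gained it (Bub3, lower without control 2) and 0 changed sign in a called gene, and called genes ranged between 0.84 and 2.25. Over all genes, leaving out 1 library gave 803 to 3617 higher and 548 to 3511 lower, with the highest counts without control 2. An adjusted p under 0.01 gave 732 higher and 524 lower. Scaling by library size only gave 2501 higher and 1268 lower, against 1816 and 1621 with TMM, and moved the median of all genes to 0.09. Deviations of same-numbered libraries from their group means correlated at -0.174, 0.161 and 0.254 for numbers 1, 2 and 3. Control 2 stood apart and shifted the mean of the controls, so these values cannot show whether replicate numbers pair the libraries. With the replicate block, all 43 mitotic genes kept their calls and all genes gave 1038 higher and 806 lower. Among other mitotic genes, the 3 lower calls became 1 with library size only, 1 with no filter, 0 with the replicate block, 5 with DESeq2 and 0 at an adjusted p under 0.01, and 0 to 7 without 1 library, which also gave 39 to 58 higher. Genes of mitotic transcription gave 2 higher with the replicate block and 1 at an adjusted p under 0.01, and 2 to 8 higher and 0 to 1 lower without 1 library. S phase genes gave 12 higher at an adjusted p under 0.01, and 14 to 28 without 1 library. G1 genes gave 1 lower with the replicate block and 0 at an adjusted p under 0.01, and 0 to 4 without 1 library. A stricter threshold and fewer libraries lower counts by construction, and for the other changes the cause was not tested. The 45 genes had 25 to 3092 counts each in a library.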

Other observations

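Regulators of G1 were called in both directions. Of 14 genes of G1 cyclins, their kinases and CDK inhibitors, 6 rose, 3 fell and 5 did not pass, with a median log2 fold change of 0.21. Calls over all tested genes were 13.1% higher and 11.7% lower. At an adjusted p under 0.01, edgeR called 6 of the 14 higher and 0 lower, where 5.27% and 3.77% of all tested genes were called. Without control 2, 6 rose and 4 fell, where 25.5% of all tested genes were called higher and 24.8% lower. Rb1, which encodes the retinoblastoma protein that holds back E2F, had 138, 126 and 129.9 CPM in knockouts and 41.1, 61.7 and 37.5 CPM in controls (1.49, SE 0.20, edgeR adjusted p = 0.00611). The genes of the CDK4 and CDK6 inhibitors p18 and p19, Cdkn2c and Cdkn2d, rose by 1.48 and 1.35. Cdkn1a, which encodes p21, had 441, 417 and 444 CPM in knockouts and 518, 543 and 528 CPM in controls (-0.29, SE 0.07, adjusted p = 0.0302), and lost its call with scaling by library size only (adjusted p = 0.0837), with no filter (0.0855), with a sex term (0.0580) and without any 1 library other than control 2 (0.0826 to 0.126). The other genes called were Ccnd3, Cdkn1b and Cdkn1c, which rose, and Ccnd2 and Cdkn2b, which fell, named after their values were seen. Cdkn1c, which encodes p57, had 9.40, 6.81 and 5.35 CPM in knockouts and 0.738, 0.871 and 0.822 CPM in controls (3.14, SE 0.27, adjusted p = 0.00208). Exons of other genes on the opposite strand overlap 14.9% of the exonic bases of Rb1 and 30.7% of those of Cdkn1c. The strand setting of the counting is not given, so reads of these genes could be shared. Of the 8 genes in the list that encode CDK inhibitors or RB, 5 rose, 2 fell and 1 did not pass. Ccnd2 lost its call when control 3, knockout 2 or knockout 3 was left out (adjusted p 0.0684 to 0.0923), and Cdkn2b without any 1 library other than control 2 (0.0675 to 0.0827).

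Ccnd1, which encodes cyclin D1, had 626, 465 and 567 CPM in knockouts and 1367, 421 and 1528 CPM in controls, which overlapped through control 2 (553 ± 81.0 CPM in knockouts and 1106 ± 598 CPM in controls, SD, n = 3 each, edgeR adjusted p = 0.178). Leaving out control 2 gave Ccnd1 a log2 fold change of -1.42 (edgeR adjusted p = 1.163e-04). Exons of another gene on the opposite strand overlap 23.4% of the exonic bases of Ccnd1.

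Among the fibroblast markers, Dcn, which encodes decorin, had 1421, 2109.5 and 1343 CPM in knockouts and 3.95, 317 and 6.96 CPM in controls (log2 fold change 3.90, SE 1.73, adjusted p = 0.156 by edgeR). Leaving out control 2 gave 8.19 (adjusted p = 7.794e-06), and with all libraries it was called by DESeq2 (adjusted p = 0.0480) and limma voom (0.0402). Dcn was picked out after its values were seen, and the list as a whole did not follow it. The median log2 fold change of the 10 tested fibroblast markers was -2.71, and an unadjusted p under 0.05 was reached by 1 that was higher and 3 that were lower. Without control 2, 4 were called higher and 1 lower (Col1a1, -1.52, edgeR adjusted p = 0.0406), where 25.5% of all tested genes were called higher and 24.8% lower. DESeq2 called Col1a1 lower with all libraries (-3.84, adjusted p = 0.00791).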
